A study of Mus musculus with 24 samples.

Results

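CpG island peaks outside promoters are stretches of open chromatin that the authors' peak annotation placed over a CpG island and did not assign to a promoter. They were taken from the 147020 ATAC-seq peaks of the deposited count table as the peaks on chromosomes 1 to 19 whose detailed annotation names a CpG island and whose main annotation is not a promoter. There were 2552 of them, 1713 in introns and 839 between genes. All 2653 peaks with a CpG label lay outside the promoter class, and the 101 on X or Y were set aside.

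A CpG island is a stretch of DNA rich in G and C in which the dinucleotide CG, otherwise depleted from mammalian genomes, is kept at a high density because it is rarely methylated. Most islands lie at gene starts. Islands inside or between genes are known to act as starts of unannotated or non-coding transcripts, as enhancers of developmental genes, or as landing sites of the Polycomb complexes PRC1 and PRC2, which silence developmental regulators in cells that do not use them. ATAC-seq reports such sites as DNA that the Tn5 transposase can cut.

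The study sorted nuclei carrying NeuN, a protein of most neuronal nuclei, from striatum of 12-month-old C57BL/6 mice. There were 6 animals per genotype, 3 of each sex by the labels. Q140 animals carried 1 knock-in allele of the huntingtin gene Htt with an expanded CAG repeat and 1 normal allele, Q140_Msh3KO animals carried that allele and lacked Msh3, Msh3KO animals lacked Msh3 with normal Htt, and WT animals were wild type. Msh3 encodes a mismatch repair protein needed for CAG repeats to lengthen in somatic cells. Both alleles are in every cell of the animal, and each library mixes all neuron types of 1 striatal sample, so fewer nuclei of a type and less accessibility per nucleus cannot be told apart.

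Libraries held 4372251 to 11736557 counts in peaks, of which CpG island peaks took 4.22 ± 0.137% in Q140, 3.98 ± 0.360% in Q140_Msh3KO, 3.97 ± 0.221% in Msh3KO and 3.93 ± 0.170% in WT (SD, n = 6 each). A pair of libraries stood apart and was kept. Q140 F2, labelled female, had 1.47% of its counts on X. Other libraries labelled female had 1.72% to 1.94% and those labelled male 1.49% to 1.59%. The X share of Q140 F2 thus goes against its label, and the labelled sex was used in the main fit. Q140_Msh3KO M1 had 12.7% of its counts in its 10 highest peaks, against 3.32% to 4.74% in the others of its genotype. Promoter peaks of 40 of 49 genes of striatal projection neuron identity were found, with summed levels of 838 to 1120 CPM in Q140, 844 to 1070 CPM in Q140_Msh3KO, 844 to 1160 CPM in Msh3KO and 912 to 1240 CPM in WT. Promoter peaks were found for 6 of 20 astrocyte, 9 of 24 oligodendrocyte, 2 of 20 microglia and 10 of 27 endothelial and pericyte marker genes. The summed levels of each of these lists overlapped between genotypes and none passed 48.2 CPM in a library. CPM are counts scaled by edgeR to a common library size with TMM factors.

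Sequence at these peaks can be shown where a RefSeq gene start lies inside the peak. RefSeq (GRCm38.p6) gives 300-base windows around gene starts, and 789 such windows lay wholly inside 685 of the CpG island peaks. Their median GC content was 65.0% and their median CpG observed over expected ratio 0.795, where 1 means that CG is as frequent as its bases predict. Windows inside promoter peaks had 64.0% and 0.825, windows inside other intron and intergenic peaks 54.7% and 0.455, and all 31365 autosomal windows 53.0% and 0.388. The GC box GGGCGG, searched on both strands, stood in 78.5% of the windows in CpG island peaks, 70.7% of those in promoter peaks and 36.0% of all windows. The TATA box TATAAA stood in 5.20%, 4.82% and 13.6% of these. Windows came from a selected subset of the peaks, since the others hold no RefSeq start or do not hold its whole window.

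The stretches below are the bases before a RefSeq start that fall inside a peak whose level differed between Q140 and WT, read on the strand of the named gene. CG dinucleotides are in capitals. The first 3 belong to the peaks with such a start that were higher in Q140 with the smallest p, and the last 3 to those that were lower. The nearest annotated genes of the first 3 peaks are Pax2, Sfmbt2 and Neurod2. Another CpG island peak lies closer to the Neurod2 start than the one shown.
Gm41854 (chr19:44672167-44672416, plus strand, in the peak upstream of Pax2): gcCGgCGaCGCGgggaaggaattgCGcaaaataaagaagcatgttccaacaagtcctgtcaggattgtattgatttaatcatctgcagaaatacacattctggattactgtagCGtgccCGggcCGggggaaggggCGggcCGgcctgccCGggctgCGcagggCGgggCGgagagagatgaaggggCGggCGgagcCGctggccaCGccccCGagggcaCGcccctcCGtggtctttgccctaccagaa
Sfmbt2 (chr2:10372305-10372435, plus strand): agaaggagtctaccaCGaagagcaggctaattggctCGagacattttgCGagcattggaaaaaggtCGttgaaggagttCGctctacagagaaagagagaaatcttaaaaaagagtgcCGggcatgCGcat
Gm31317 (chr11:98314136-98314261, minus strand, in the peak nearest Neurod2): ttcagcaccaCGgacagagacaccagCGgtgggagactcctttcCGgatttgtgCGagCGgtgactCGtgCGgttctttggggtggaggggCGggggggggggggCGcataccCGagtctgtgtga
Gm31714 (chr13:65420366-65420615, minus strand): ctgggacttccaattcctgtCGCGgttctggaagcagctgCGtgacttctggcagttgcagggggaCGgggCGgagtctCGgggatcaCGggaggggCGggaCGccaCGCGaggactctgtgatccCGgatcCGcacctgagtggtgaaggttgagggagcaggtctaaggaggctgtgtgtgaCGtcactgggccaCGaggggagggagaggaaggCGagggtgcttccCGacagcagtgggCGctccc
Gm21297 (chr12:24252439-24252688, minus strand): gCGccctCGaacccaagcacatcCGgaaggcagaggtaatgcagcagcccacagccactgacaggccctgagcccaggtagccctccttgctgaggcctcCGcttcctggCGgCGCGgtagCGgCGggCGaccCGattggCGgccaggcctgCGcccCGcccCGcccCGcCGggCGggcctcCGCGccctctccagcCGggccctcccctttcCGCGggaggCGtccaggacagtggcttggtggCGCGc
Rps6ka4 (chr19:6840628-6840877, minus strand): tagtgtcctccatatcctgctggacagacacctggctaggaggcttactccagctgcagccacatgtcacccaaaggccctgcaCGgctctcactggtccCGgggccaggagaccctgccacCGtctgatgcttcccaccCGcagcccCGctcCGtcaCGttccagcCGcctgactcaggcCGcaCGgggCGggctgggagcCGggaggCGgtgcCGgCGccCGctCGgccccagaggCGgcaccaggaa
The Gm41854 stretch holds 21 CG dinucleotides at 62.8% GC, and the Sfmbt2 stretch 7 in 131 bases at 46.6%. Of the stretches shown, Gm21297 has the most sequence in common with other windows, since 54.4% of the 16-base words of its window recur in the window of Gm9257 on the same chromosome and 77.2% in at least 1 other window of the genome. Reads from such a place can be shared among copies, and its counts are uncertain for that reason.

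In the annotation the peaks fell into distinct positions. Of the 2552 peaks, 1232 had their reference point 102 to 1000 bases downstream of the nearest annotated start, and none lay within 1000 bases upstream, the nearest upstream one lying at -1004 bases. The other 1320 were beyond 1 kb, 724 of them beyond 10 kb and 117 beyond 100 kb. A RefSeq start lay inside 784 of the peaks within 1 kb and inside 136 of those beyond 1 kb, 36.1% of all. The name "outside promoters" therefore holds by the authors' annotation, and for a share of the peaks it describes the downstream flank of a promoter. Results below are given for both position classes.

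CpG island peaks were wide and strongly open. Their median width was 912 bases, against 893 bases for the 9867 autosomal promoter peaks and 376 bases for the 118918 other intron and intergenic peaks. Median levels in WT were 11.6 CPM in CpG island peaks, 15 CPM in promoter peaks and 3.15 CPM in the other intron and intergenic peaks. Per kilobase of width the medians were 12.7, 16.2 and 8.48 CPM. Peaks within 1 kb of a start had a median of 16.3 CPM and those beyond 1 kb 7.60 CPM, or 14.3 and 10.9 CPM per kilobase. The median CpG island peak held 96.5 counts per library, against 27 for all peaks, so a given difference was measured with a median SE of 0.13 (log2), against 0.20 over all tested peaks.

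The highest peaks in WT were 4 around Rn4.5s, a gene of the small rodent 4.5S RNA, and 1 in an intron of Sfi1, which encodes a centrosome protein. The Rn4.5s peak at chromosome 6, 47763064 to 47764529, held 241 to 269 CPM in Q140, 256 to 278 in Q140_Msh3KO, 216 to 257 in Msh3KO and 223 to 331 in WT. The groups overlap throughout, and Q140 differed from WT by -0.02 ± 0.09 in log2 (SE; edgeR, adjusted p = 0.958). All 5 CpG island peaks of the Rn4.5s region lay between -0.02 and 0.04. The Sfi1 peak varied more among animals of 1 genotype, at 88.0 to 184 CPM in Q140 and 103 to 177 CPM in WT.

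The first comparison, Q140 vs WT, asks which of these sites differ in animals with the expanded repeat. Of 2551 CpG island peaks tested, 75 were higher and 22 lower in Q140 by edgeR's quasi-likelihood test with Benjamini-Hochberg adjustment over all 146155 tested peaks at 0.05. One peak, with 183 counts over the 24 libraries, was too low to be tested. Called peaks made up 3.80% of those tested, against 10.3% of all tested peaks, 4.2% of which were higher and 6.11% lower. Among CpG island peaks 2.94% were higher and 0.862% lower. Without the library Q140 F2 47 peaks were higher and 26 lower, and without WT M2 48 and 30. The lower count was 14 without Q140 M1 or without WT F3 and 13 without WT M3. With the share of counts in promoter peaks as a covariate, 58 peaks were higher and 35 lower, with total count scaling 129 and 21, and with abundance loess offsets 192 and 34.

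Peaks beyond 1 kb of a start carried most of the calls, with 52 higher and 20 lower of 1320 (5.45%). Within 1 kb of a start 23 were higher and 2 lower of 1231 (2.03%). Promoter peaks had 181 higher and 145 lower of 9859 (3.31%), and other intron and intergenic peaks 5578 higher and 8080 lower of 118182 (11.6%). Split into 4 equal groups by mean level instead, 4.08% of the lowest group of CpG island peaks were called, then 5.80%, 3.77% and 1.57% of the highest. In the lowest group 24 peaks were higher and 2 lower. The differences between classes were not tested.

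**Figure D1:**
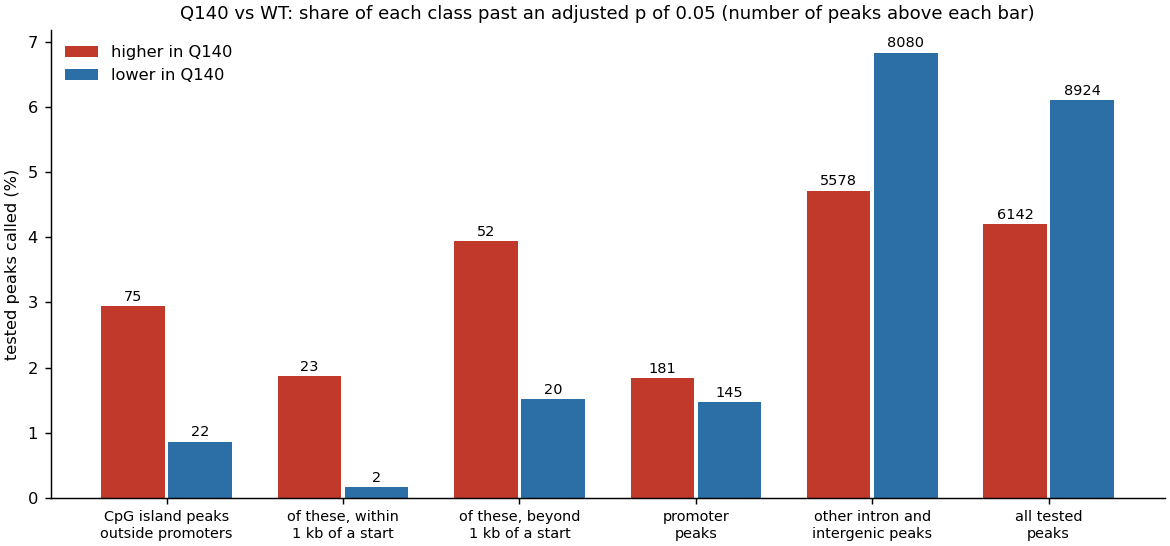
Share of tested peaks called higher (red) or lower (blue) in Q140 vs WT for CpG island peaks outside promoters, their 2 position classes, promoter peaks, other intron and intergenic peaks and all tested peaks, in percent, with the number of peaks above each bar. Among CpG island peaks the higher bar (75 peaks) stands above the lower bar (22 peaks), whereas over all tested peaks 6142 are higher and 8924 lower.

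Beyond the called peaks, the set leaned upward by a small amount. In Q140 vs WT the median log2 fold change stood at 0.08 over the CpG island peaks and -0.01 over all tested peaks, and 70.1% of the CpG island peaks were above 0, against 49.0% of all. Promoter peaks had a median of 0.05 with 65.6% above 0. Leaving out 1 library at a time gave CpG island medians of 0.03 to 0.12. The mean share of counts in promoter peaks was also higher in Q140 than in WT. It was 20.8 ± 1.03% in Q140, 21.1 ± 1.83% in Q140_Msh3KO, 20.0 ± 1.44% in Msh3KO and 19.7 ± 1.21% in WT (SD, n = 6 each). The Q140_Msh3KO mean includes M1 at 24.51%. Median shares were 20.99% in Q140, 20.41% in Q140_Msh3KO, 20.55% in Msh3KO and 19.57% in WT. The part of this share in the median log2 fold change was not tested beyond the covariate fit, which gave 0.05.

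Several of the largest gains lay at Polycomb genes and at developmental transcription factors. Cbx8 encodes a chromobox subunit of PRC1, the Polycomb complex that ubiquitinates histone H2A. A peak 12.7 kb upstream of its start (chromosome 11, 119053202 to 119054036, intergenic) held 23.6, 31.1 and 35.7 CPM at the lowest, median and highest Q140 animal, 5.70, 11.4 and 17.4 CPM in Q140_Msh3KO, 5.56, 6.78 and 10.6 CPM in Msh3KO and 4.87, 6.81 and 11.1 CPM in WT. Every Q140 animal was above every animal of the other 3 genotypes. Against WT, its log2 fold change was 2.12 ± 0.17 (SE, adjusted p = 2.5e-10).

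Its neighbours moved the same way by less. The CpG island peak 6.60 kb downstream of the Cbx8 start was higher by 0.68 ± 0.16 (adjusted p = 0.00336) and the one 15.9 kb upstream by 0.86 ± 0.21 (adjusted p = 0.00519). The Cbx8 promoter peak itself gave 0.42 ± 0.12 (adjusted p = 0.0128). The stretches of chromosome named as regions below were bounded after their values were seen.

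Other Polycomb genes had smaller changes. Sfmbt2 encodes a Polycomb-group protein and is imprinted in mouse, with the paternal copy expressed in the placenta. Its intronic peak 0.285 kb from the start, whose first bases are shown above, held 6.85 to 8.74 CPM in Q140 with a median of 7.96, 3.35 to 5.56 CPM in Q140_Msh3KO with a median of 4.40, 3.45 to 4.70 CPM in Msh3KO with a median of 3.74 and 2.85 to 5.13 CPM in WT with a median of 4.10. All 6 Q140 animals were above the 18 others, and the log2 fold change was 0.97 ± 0.15 (SE, adjusted p = 7.8e-06). A second Sfmbt2 intronic peak, 2.76 kb in, was higher by 1.15 ± 0.22 from lower levels (median 3.70 CPM in Q140 and 1.59 CPM in WT). Scmh1, which encodes a protein that binds PRC1, was higher by 0.36 ± 0.12 (adjusted p = 0.0464) at a peak over its own start.

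Onecut1, a cut homeobox transcription factor, had a pair of CpG island peaks that both rose. The peak in its intron (chromosome 9, 74863359 to 74863624) held 2.87, 3.63 and 6.02 CPM at the lowest, median and highest Q140 animal, 0.506, 0.987 and 1.74 CPM in Q140_Msh3KO, 0.683, 1.72 and 2.60 CPM in Msh3KO and 0.684, 1.34 and 3.15 CPM in WT. The highest WT animal lay above the lowest Q140 animal, and counts were low, at 20 to 51 in Q140 and 5 to 23 in WT libraries. The log2 fold change was 1.32 ± 0.31 (SE, adjusted p = 0.00392). The second peak lies over the non-coding genes Gm16551 and Gm33562 and was higher by 1.11 ± 0.19 (adjusted p = 5.4e-05). The Onecut1 promoter peak, which is not a CpG island peak by the rule, gave 1.60 ± 0.16.

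Pax2 is a paired-box factor of kidney, eye and the midbrain-hindbrain border. The peak 74.4 kb upstream of it, over the start of the non-coding gene Gm41854 shown above, held 5.31, 6.61 and 9.03 CPM at the lowest, median and highest Q140 animal, 2.36, 3.72 and 5.04 CPM in Q140_Msh3KO, 1.82, 2.87 and 3.32 CPM in Msh3KO and 2.17, 2.84 and 3.43 CPM in WT. Q140 did not overlap any other genotype, and the log2 fold change was 1.29 ± 0.18 (SE, adjusted p = 1.3e-06). A peak 62.2 kb upstream was higher by 0.73 ± 0.17 (adjusted p = 0.0024). The remaining 3 CpG island peaks of the Pax2 region gave 0.45 to 0.61 and did not pass the test.

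The peak named for the non-coding gene Gm26688 lies in an intron of Tfap2a, which encodes the neural crest factor AP-2 alpha (chromosome 13, 40722641 to 40723512). It held 14.8, 19.3 and 22.4 CPM at the lowest, median and highest Q140 animal, 5.21, 6.10 and 8.14 CPM in Q140_Msh3KO, 7.15, 8.37 and 9.64 CPM in Msh3KO and 8.04, 9.45 and 11.2 CPM in WT. The Q140 animals stood clear of all others, and the log2 fold change was 0.99 ± 0.12 (SE, adjusted p = 3.1e-07). Gbx2, a homeobox gene of the anterior hindbrain and thalamus, had a peak 10.9 kb upstream with 7.68 to 10.2 CPM in Q140 and 2.88 to 6.81 CPM in WT, higher by 0.88 ± 0.17 (adjusted p = 4.2e-04). A low peak in an intron of BC107364, over the transfer RNA gene n-TNgtt11, held 2.18 to 4.17 CPM in Q140 and 0.684 to 1.97 CPM in WT without overlap and was higher by 0.99 ± 0.25 (adjusted p = 0.00484).

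**Figure D2:**
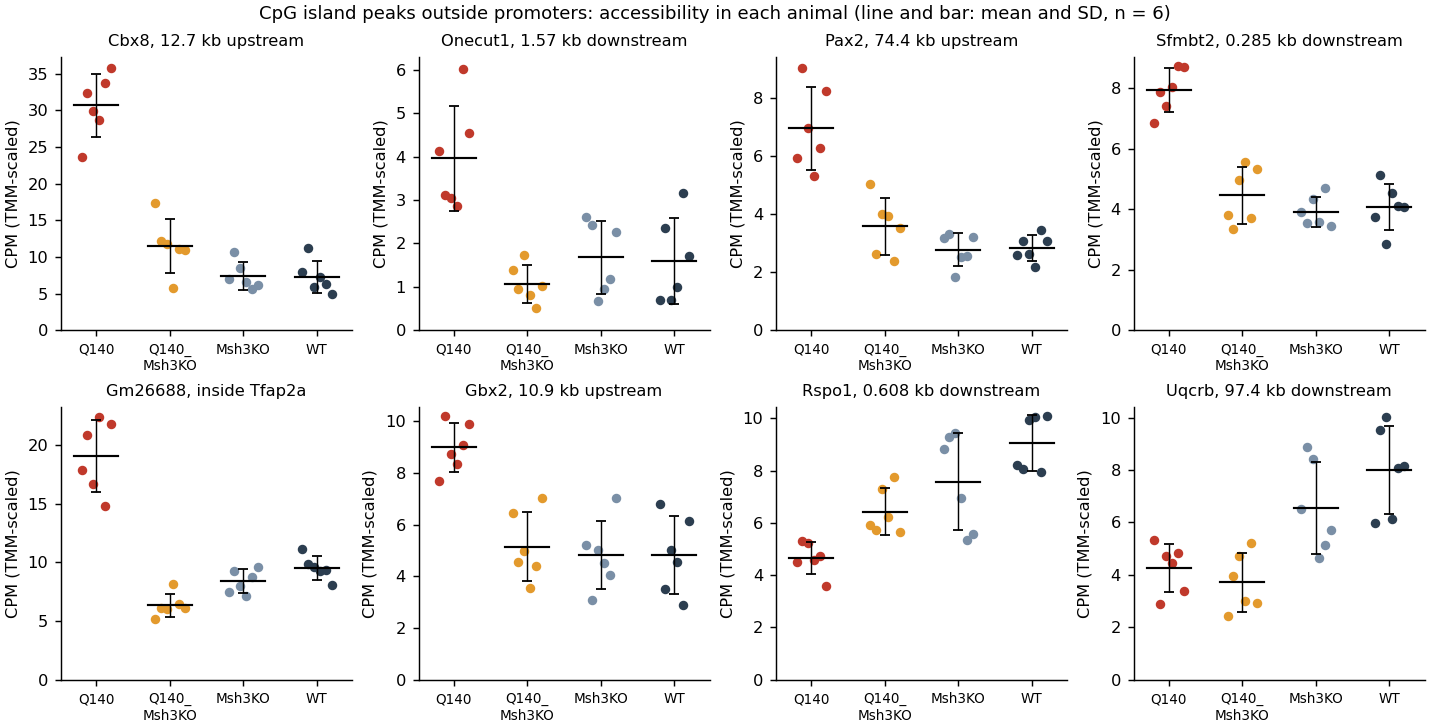
CPM per animal (points), with the mean (line) and SD (bar) of 6 animals, for 8 CpG island peaks in Q140, Q140_Msh3KO, Msh3KO and WT, each panel named by its nearest gene. In the panels of Cbx8, Pax2, Sfmbt2, Gm26688 and Gbx2 all Q140 animals lie above the animals of the other genotypes, and in the panel of Uqcrb the Q140 and Q140_Msh3KO animals lie low together.

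Among genes known as Polycomb targets in development, 220 were listed, and 65 of them were the nearest gene of 88 CpG island peaks. Of the 88, 14 were higher in Q140, 0 lower and 74 not called, with a median log2 fold change of 0.22, against 75 higher and 22 lower of 2551 and a median of 0.08 over all CpG island peaks. Over peaks of every class annotated to the list, 98 were higher and 39 lower of 1364, with a median of 0.07. With CpG island peaks within 10 kb of the start alone, 9 were higher. The list was drawn up with earlier results of these data known and is not independent evidence of direction. Besides Pax2, Onecut1 and Gbx2, the Hoxa cluster of body-axis homeobox genes contributed Hoxa3 at 0.88, Hoxa7 at 0.44 and Evx1, the even-skipped homolog at the end of the cluster, at 0.61, while the fourth peak there, nearest Hoxa11, gave 0.49 ± 0.30 and did not pass.

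The remaining calls of the list lay at Zic1, a zinc finger factor of cerebellar and neural crest development (0.80), Pax3, a paired-box factor of the neural crest (0.57), Otp, a hypothalamic homeobox factor (0.54), Nr2f1, an orphan nuclear receptor that patterns the cortex (0.39), Gata2 (0.37) and Neurod2. Neurod2 encodes a basic helix-loop-helix factor of cortical excitatory neurons, and 2 of the 4 CpG island peaks of its region were higher. The peak over Gm31317, shown above, held 3.36 to 5.40 CPM in Q140 and 1.58 to 3.52 CPM in WT, a narrow overlap, and rose by 0.96 ± 0.20 (adjusted p = 8.8e-04). The other lay 4.80 kb upstream of Neurod2 and rose by 0.47 ± 0.12, with 13.4 to 15.6 CPM in Q140 against 8.50 to 12.0 CPM in WT. Ppp1r1b, which encodes the striatal phosphoprotein DARPP-32, lies within 50 kb of both, so the nearest gene need not be the one concerned.

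Lists of neuronal and glial genes are small, and their counts stand against 2.94% higher and 0.862% lower over all CpG island peaks. Of 12 CpG island peaks of cortical glutamatergic markers 3 were higher, the Neurod2 pair and Nr4a2, which encodes an orphan nuclear receptor, and over every class of peak the list had 24 higher and 18 lower of 330. The Nr4a2 intronic peak held 5.92 to 9.15 CPM in Q140 and 3.42 to 6.86 CPM in WT and was higher by 0.63 ± 0.15 (SE, adjusted p = 0.00334). It was also the 1 higher peak of 28 for activity-regulated genes, where the 1 lower peak was that of Egr2, a zinc finger factor induced by neuronal activity, at -0.47 ± 0.15 (adjusted p = 0.0385). Every class of peak of the activity-regulated list had 20 higher and 32 lower of 492. Among 11 peaks of striatal projection neuron identity genes 1 was higher, near Bcl11b, the factor also called CTIP2, at 0.37 ± 0.12 (adjusted p = 0.039). Over every class of peak that list went the other way, with 35 higher and 112 lower of 1166 and a median of -0.11. Grik4, a kainate receptor subunit, was the 1 higher of 13 for glutamate receptors and the postsynaptic density, at 0.51 ± 0.12, whereas every class of peak of the list had 73 higher and 147 lower of 1875 and a median of -0.06. The calls at Egr2 and Bcl11b ended in 15 and 8 of 24 fits without 1 library, at adjusted p of up to 0.212 and 0.0912.

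Of 14 peaks of GABA and interneuron markers 1 was higher, that of Gbx2, and every class of peak of the list had 16 higher and 16 lower of 304. None of 13 peaks of ion channel genes passed the test, with a median of 0.12. Every class of peak of that list had 63 higher and 106 lower of 1646 and a median of -0.04. None of 2 astrocyte, 4 oligodendrocyte and 6 endothelial and pericyte CpG island peaks passed. Microglia markers and clustered protocadherins had no CpG island peak. Of 15 peaks of imprinted genes 3 were higher, the Sfmbt2 pair and Airn, the antisense RNA that silences Igf2r on the paternal copy, at 0.43 ± 0.14 (adjusted p = 0.0481). That call was lost in 10 of the 24 fits with 1 library left out and in 6 other settings, among them the replicate block, DESeq2 and the promoter share covariate. Every class of peak of the imprinted list had 33 higher and 15 lower of 643. Of 26 peaks of chromatin regulators that bind CpG islands 4 were higher, the 3 of Cbx8 and Scmh1, while every class of peak of that list had 19 higher and 20 lower of 485.

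Promoter peaks of the same genes were then read. The 52 higher peaks beyond 1 kb of a start had 47 nearest genes, of which 23 had a tested promoter peak. The promoter peak with the most counts at each gave a median log2 fold change of 0.20 in Q140 vs WT, with 20 of 23 above 0, and 3 passed the test, those of Onecut1, Cbx8 and Poll, which encodes DNA polymerase lambda. Over all 9859 promoter peaks tested the median was 0.05, with 65.6% above 0 and 1.84% called higher. For Bcl11b the promoter gave 0.16 ± 0.13 and for Grik4 0.22 ± 0.12, neither past the threshold. The 20 lower peaks beyond 1 kb had 18 nearest-gene entries, 9 with a promoter peak, at a median of 0.04. Of these 9, 1 was lower, that of 9030624G23Rik, 155 kb from its CpG island peak. Among the 9 is 1 entry for peaks without a gene symbol, matched to promoter peaks that also lack one. That entry pairs no gene with its promoter, and the count and the median include it.

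Peaks lower in Q140 had other neighbours. Rspo1 encodes R-spondin 1, a secreted activator of Wnt signalling. Its intronic peak (chromosome 4, 124986672 to 124987404) held 3.58, 4.66 and 5.33 CPM at the lowest, median and highest Q140 animal, 5.66, 6.07 and 7.76 CPM in Q140_Msh3KO, 5.35, 7.88 and 9.45 CPM in Msh3KO and 7.95, 9.07 and 10.1 CPM in WT. Every Q140 animal was below every animal of the other genotypes, and against WT the log2 fold change came to -0.96 ± 0.15 (SE, adjusted p = 8.5e-06). Fpr2, a formyl peptide receptor gene, had a peak 22.4 kb away over Gm9481 that changed by -0.74 ± 0.13 in Q140 (adjusted p = 1.1e-04), with 6.10 to 11.6 CPM in Q140 and 14.7 to 16.4 CPM in WT. A peak inside Wbp11, named for the histone gene H2afj, gave -0.68 ± 0.15, and the Rps6ka4 peak whose start is shown above -0.51 ± 0.12. Rps6ka4 encodes a kinase of the MSK family that phosphorylates histone H3. Smaller decreases lay at Casz1, a zinc finger factor (-0.47 ± 0.14), Hrk, a pro-apoptotic gene of the BCL2 family (-0.43 ± 0.13), and Cic, the repressor capicua (-0.34 ± 0.11).

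A stretch of chromosome 13 from 65 to 68 Mb, among zinc finger genes such as Zfp369 and Zfp712, held 9 CpG island peaks, all below 0 in Q140 vs WT, 4 of them called. Peaks of every class in this stretch had 0 higher and 15 lower of 87. The called peak nearest to Uqcrb, which encodes a subunit of respiratory complex III, lies 97.4 kb from its start (66807596 to 66808313). It held 2.89, 4.58 and 5.32 CPM at the lowest, median and highest Q140 animal, 2.43, 3.46 and 5.23 CPM in Q140_Msh3KO, 4.62, 6.11 and 8.86 CPM in Msh3KO and 5.99, 8.12 and 10 CPM in WT. Q140 and WT did not overlap, and the log2 fold change was -0.91 ± 0.17 (SE, adjusted p = 2.3e-04). The Gm31714 start shown above lies in a second called peak at -0.90 ± 0.19, and another, at 65351800 to 65352399, gave -0.93 ± 0.18.

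A stretch of chromosome 12 from 17 to 25 Mb held 35 CpG island peaks, of which 28 were below 0 and 5 were called lower in Q140 vs WT, among them the peak over Gm21297 at -0.44 ± 0.12 and one 180 kb from 2410018L13Rik at -0.67 ± 0.18 (adjusted p = 0.00868). Peaks of every class there had 5 higher and 29 lower of 274. The peak nearest to Hpcal1, a neuronal calcium sensor gene 302 kb away, gave -0.72 ± 0.14 (adjusted p = 4.3e-04), with 4.35 to 8.97 CPM in Q140 and 9.67 to 13.1 CPM in WT. Of the 22 lower CpG island peaks 9 lay in these 2 stretches. Part of the chromosome 12 stretch is made of near copies, as the word counts of the Gm21297 window show, and reads may be shared among them.

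Q140_Msh3KO vs Q140 asks what loss of Msh3 is accompanied by in animals with the expanded allele. None of 2551 CpG island peaks was higher and 12 were lower, 0.470% of those tested, against 0.31% of all tested peaks higher and 0.219% lower. Without Q140 F2 and Q140_Msh3KO M1 together, 6 were lower. The median was -0.06, against 0.00 over all tested peaks, and ranged between -0.11 (without Q140_Msh3KO F3) and -0.03 (without Q140_Msh3KO F2) with 1 library left out at a time. Without Q140 F2 and Q140_Msh3KO M1 together it was -0.025. The 12 lay at 9 nearest genes. This comparison and Q140 vs WT share the Q140 animals, so their values are set side by side and no agreement is drawn from them.

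The largest decreases were at Onecut1 (-1.80 ± 0.33, adjusted p = 0.00412), Gm26688 inside Tfap2a (-1.58 ± 0.13, adjusted p = 1.6e-10), Cbx8 (-1.45 ± 0.16, adjusted p = 1.5e-06) and Gm16551 next to Onecut1 (-1.11 ± 0.19, adjusted p = 0.0013). The Pax2 region had 3 lower peaks at -0.97 ± 0.17, -0.89 ± 0.17 and -0.74, Sfmbt2 had 2 at -0.88 ± 0.21 and -0.81 ± 0.14, and Gbx2 gave -0.80 ± 0.17. The last calls were Mecom, a zinc finger factor of blood stem cells, at -0.69 and Hoxa7 at -0.62. The median Q140_Msh3KO animal at the Cbx8 peak lay at 11.4 CPM, against 31.1 CPM in Q140. At the Gm26688 peak the highest Q140_Msh3KO animal, at 8.14 CPM, was below the lowest Q140 animal, at 14.8 CPM. The Gbx2 call ended without Q140_Msh3KO F2 or without M1 (adjusted p up to 0.149), and that of the weaker Sfmbt2 peak in 6 of 24 such fits (up to 0.205).

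Of the 88 peaks of Polycomb-target developmental genes 6 were lower and 0 higher in Q140_Msh3KO vs Q140, with a median of -0.28. These were 3 near Pax2, and 1 each near Onecut1, Gbx2 and Hoxa7. Peaks of every class annotated to the list had 33 lower and 3 higher of 1364, at a median of -0.11. None of the peaks of the chromosome 12 and 13 stretches passed the test in this comparison, where the medians were -0.08 over 35 and 0.06 over 9 peaks.

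Q140_Msh3KO vs Msh3KO measures the Q140 allele in animals that lack Msh3, with no animal shared with Q140 vs WT. edgeR called 0 of 2551 CpG island peaks, against 0.116% of all tested peaks, with 66 at an unadjusted p under 0.05, and DESeq2 called 1 and limma-voom 0. Without Q140_Msh3KO M1 2 were called, and without Q140_Msh3KO M2 1. The 75 peaks higher in Q140 vs WT had a median log2 fold change of 0.06 here and 51 of them (68.0%) were above 0, whereas the 22 lower peaks had a median of -0.28 and all 22 were below 0. Over all tested peaks the same figures were 0.26 with 88.1% above 0 for 6142 higher peaks and -0.26 with 92.3% below 0 for 8924 lower peaks. The CpG island peaks had started from smaller effects. Their medians in Q140 vs WT itself were 0.50 for the higher and -0.54 for the lower peaks, against 0.74 and -0.68 over all tested peaks. Across the 2551 CpG island peaks the Pearson r between both effects was 0.251, against 0.430 across all tested peaks, as a description over peaks that share libraries and are not replicates.

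The loci of the largest gains were read one by one in these animals. The Cbx8 peak gave 0.65 ± 0.18 (adjusted p = 0.165), with 5.70 to 17.4 CPM in Q140_Msh3KO and 5.56 to 10.6 CPM in Msh3KO. Pax2 at 74.4 kb gave 0.39 ± 0.19, the Sfmbt2 peak nearest the start 0.20 ± 0.16, Gbx2 0.07 ± 0.19, Onecut1 -0.49 ± 0.38 and Gm26688 -0.39 ± 0.14. Of the losses, the Rspo1 peak held 5.66 to 7.76 CPM in Q140_Msh3KO and 5.35 to 9.45 CPM in Msh3KO, which overlap. In the chromosome 13 stretch the Uqcrb peak gave -0.78 ± 0.18 (adjusted p = 0.0695) and the Gm31714 peak -0.74 ± 0.20, and Hpcal1 on chromosome 12 gave -0.54 ± 0.15. Their interaction terms, which compare these effects with Q140 vs WT, were 0.14 ± 0.25 at Uqcrb, 0.16 ± 0.28 at the Gm31714 peak and 0.18 ± 0.20 at Hpcal1, none past the test. None of these passed the test in the animals that lack Msh3.

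**Figure D3:**
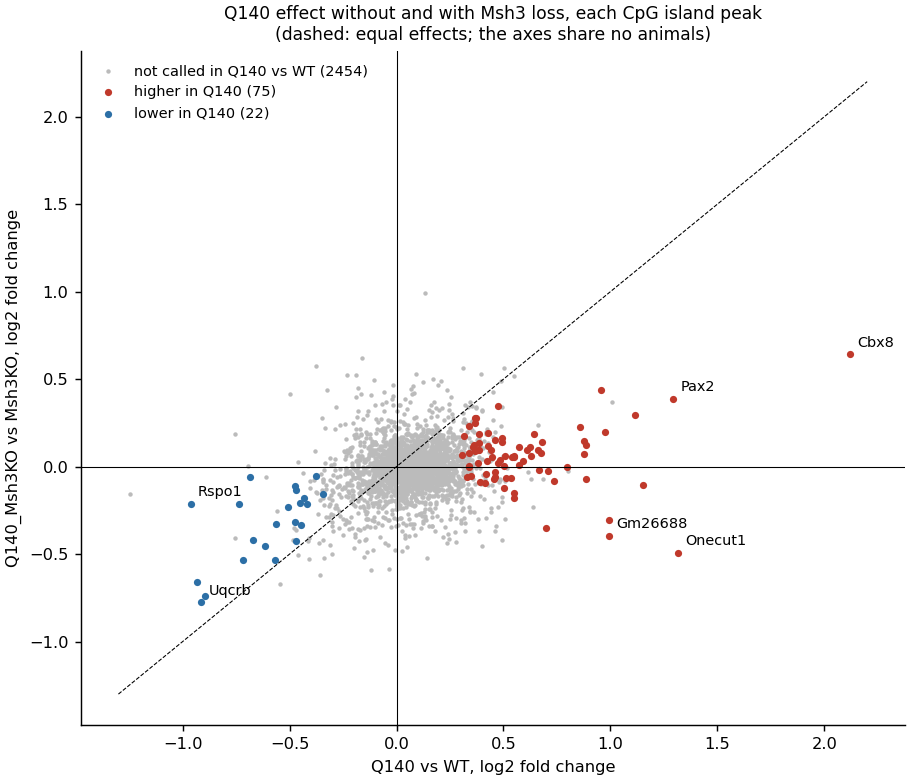
Log2 fold change of each of 2551 CpG island peaks in Q140 vs WT (horizontal) and in Q140_Msh3KO vs Msh3KO (vertical), with peaks called higher (red) or lower (blue) in Q140 vs WT and a dashed line of equal effects. Red points spread around 0 on the vertical axis, with a median of 0.06, and all 22 blue points lie below 0, with a median of -0.28.

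The interaction tests at which peaks the Q140 effect itself differs between animals without and with Msh3. It called 2 CpG island peaks, both lower without Msh3, against 0.013% of all tested peaks lower. These were Gm26688 inside Tfap2a at -1.39 ± 0.19 (SE, adjusted p = 4.2e-04) and Cbx8 at -1.48 ± 0.25 (adjusted p = 0.0159). The Cbx8 call ended without Q140_Msh3KO F2 (adjusted p = 0.0508), and that of Gm26688 remained in every fit run. For Onecut1 (-1.81 ± 0.49, adjusted p = 0.215), Pax2 (-0.91 ± 0.26, adjusted p = 0.257), Sfmbt2 (-0.77 ± 0.22, adjusted p = 0.22) and Gbx2 (-0.81 ± 0.26, adjusted p = 0.321) the difference did not pass. The median over CpG island peaks was -0.08, against 0.01 over all tested peaks.

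**Figure D4:**
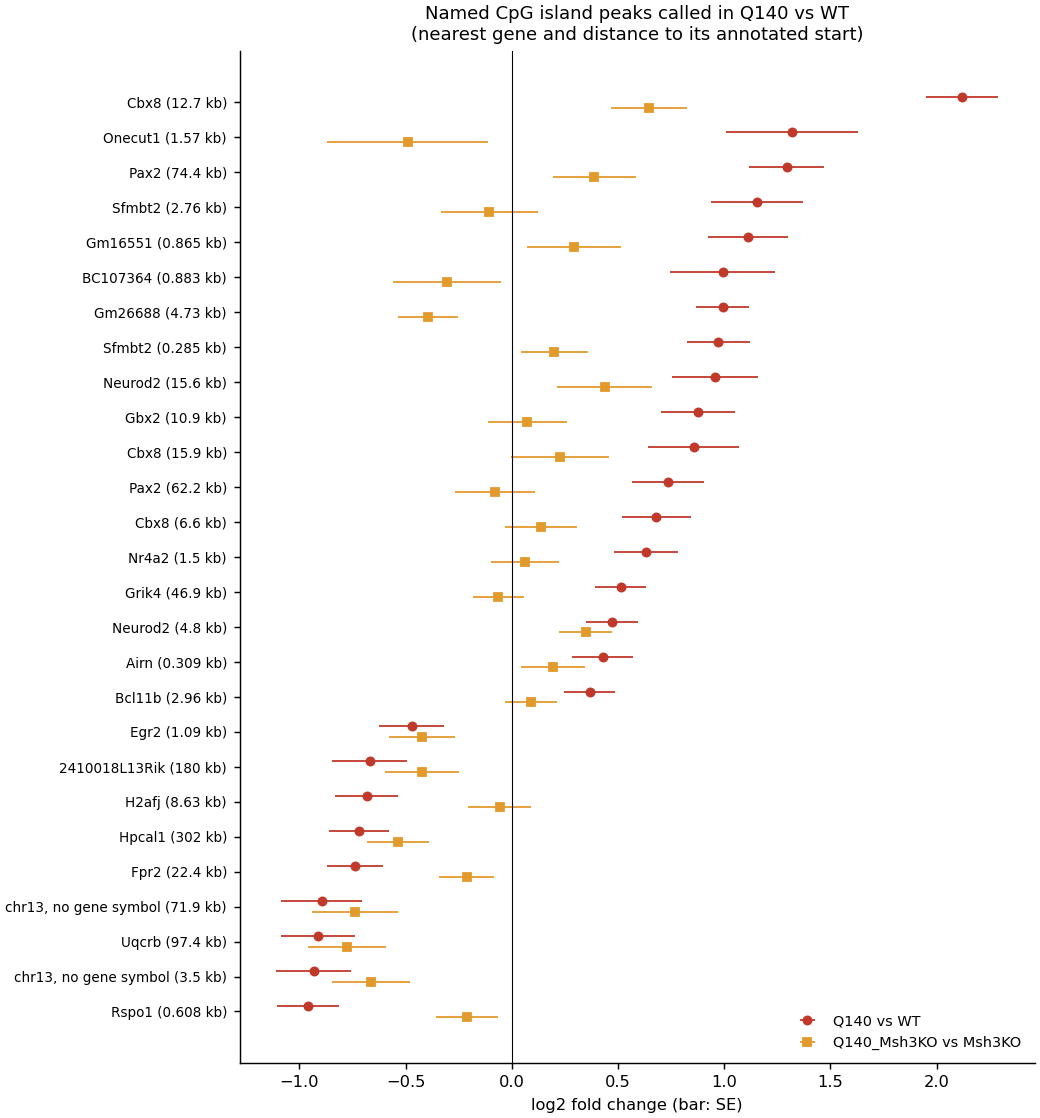
Log2 fold change with SE of the 27 named CpG island peaks that were called in Q140 vs WT, in Q140 vs WT (red circles) and in Q140_Msh3KO vs Msh3KO (orange squares), ordered by Q140 vs WT and labelled by nearest gene and distance to its start. Squares of the peaks at the top, such as Onecut1 at -0.49 and Sfmbt2 at -0.11, lie far left of their circles, and that of Uqcrb at -0.78 lies near its circle. This does not hold for every lower peak.

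Q140_Msh3KO vs WT asks what remains when both alleles are changed. It called 5 lower and 0 higher CpG island peaks, against 0.274% of all tested peaks lower. They were the Uqcrb peak (-1.10 ± 0.18, adjusted p = 9.2e-04), the Gm31714 peak (-1.09 ± 0.20, adjusted p = 0.00373) and the peak at 65351800 (-0.87 ± 0.18, adjusted p = 0.0126) on chromosome 13, Hpcal1 (-0.65 ± 0.14, adjusted p = 0.022) on chromosome 12 and Gm26688 (-0.59 ± 0.14, adjusted p = 0.0319). With 1 library left out, the call at Gm26688 ended in 9 of 24 fits (adjusted p up to 0.118), that at Hpcal1 in 4 (up to 0.102) and that at 65351800 in 3 (up to 0.0828). At the Gm26688 peak Q140_Msh3KO animals held 5.21 to 8.14 CPM, against 8.04 to 11.2 CPM in WT, so the highest Q140_Msh3KO animal lay just above the lowest WT animal. Without Q140_Msh3KO M3 or without WT F3 2 peaks were called, and without Q140_Msh3KO F1 or without WT M3 3. The Cbx8 peak gave 0.67 ± 0.18 and did not pass (adjusted p = 0.0765).

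Msh3KO vs WT measures loss of Msh3 with normal Htt. edgeR called 0 of 2551 CpG island peaks, against 0.013% of all tested peaks, with 45 at an unadjusted p under 0.05, and DESeq2 and limma-voom called 0 each. The median was 0.02, against 0.00 over all tested peaks. The Cbx8 peak gave 0.03 ± 0.19, Pax2 -0.06 ± 0.20, Sfmbt2 -0.04 ± 0.16, Gbx2 0.00 ± 0.19, Gm26688 -0.19 ± 0.13 and Uqcrb -0.32 ± 0.17. Because a targeted allele can carry flanking DNA of another strain, peaks within 20 Mb of the targeted genes were counted: 45 lay near Htt and 26 near Msh3, and 3 of them were called in any of the 6 comparisons, against 98 of all 2552.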

How the data were processed

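ATAC-seq of sorted NeuN-positive striatal nuclei was deposited by the authors as 1 table of read counts per peak for 24 libraries, aligned to GRCm38. BWA, SAMtools, Picard, MACS2 and featureCounts are named in the submitters' processing notes, with versions not given in the sources used here. All 24 sample columns were used, and 0 other sample columns were present. No pair of libraries within a genotype was a duplicate (chi-square per peak 1.33 to 8.84 over 60 pairs). Replicates are separate animals per the labels.

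Tests on the deposited counts used edgeR 4.0.16 under R 4.3.3 (filterByExpr with a minimum count of 10, TMM scaling, glmQLFit and glmQLFTest with genotype and sex over all 24 libraries) and adjusted over all tested peaks by Benjamini-Hochberg, with calls at 0.05. DESeq2 1.42.0 and limma-voom (limma 3.58.1) were alternatives, beside other scalings, no filter, covariates, a replicate block and each library left out. The procedure was tested on simulated data.

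Sequences are shown for 3 higher and 3 lower called peaks with a RefSeq start, taken by p. Named peaks were, in Q140 vs WT, the 8 called higher and the 8 called lower with the largest fold changes. In the other comparisons they were up to 6 each way, together with the 5 highest in WT and up to 3 called per gene list. Other called peaks are given because a group or locus turns on them and were chosen after their values were seen. The members and lists were chosen with earlier results of these data known. The planned covariate for promoter CpG islands became the share of counts in all promoter peaks, since no promoter peak carries a CpG label. Replicate numbers were not used to pair samples in the main fit.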

Additional observations from a re-analysis of the deposited data

Results flagged for a closer look

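Over 136 groups of 6 animals, 7 had 1 animal far from its group, where chance flags about 1 in 20. On chromosome 13 the peak at 65351800 had 3.57 CPM in Msh3KO M1, against 5.59 to 6.20 CPM in the other Msh3KO animals. The Fpr2 peak had 16.6 CPM in Q140_Msh3KO M1, against 10.9 to 12.8 CPM in the others of that genotype. At Rn4.5s, WT M1 stood high at 2 peaks, with 273 CPM against 198 to 226 CPM and with 191 CPM against 129 to 142 CPM in the other WT animals. The Neurod2 peak 4.80 kb upstream had 13.4 CPM in Q140 M1, against 14.8 to 15.6 CPM in the other Q140 animals. The Cbx8 peak 6.60 kb from its start had 7.16 CPM in Q140 M3, against 5.05 to 5.78 CPM. Summed over all CpG island peaks, Q140 F1 had 37320 CPM, against 41290 to 43550 CPM in the other Q140 animals.

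The Q140 effect differed between animals without and with Msh3 at 2 peaks by the interaction term. It was -1.48 at Cbx8 (edgeR, adjusted p = 0.0159) and -1.39 at Gm26688 (adjusted p = 4.2e-04).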

How the results depend on the processing

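The 43 named results gave 1502 pairs of result and setting. Of these pairs, 1428 kept the call, 74 lost it and 0 changed direction, and 33 results kept it in every setting tried. Called CpG island peaks in Q140 vs WT numbered 150 with total count scaling (129 higher, 21 lower) and 226 with abundance loess offsets (192 higher, 34 lower). In Q140_Msh3KO vs Q140 they numbered 19 with loess offsets and 6 without Q140 F2 and Q140_Msh3KO M1. In Q140_Msh3KO vs Msh3KO they numbered 2 with loess offsets, 1 with the promoter share covariate, 1 with DESeq2 and 2 without both libraries, and in Q140_Msh3KO vs WT 8 with fits of only the pair of genotypes. The cause was not tested. As a share of counts outside promoters, the peaks took 5.46% in Q140, 5.16% in Q140_Msh3KO, 5.08% in Msh3KO and 5.01% in WT, where the smaller denominator sets the rise. Within 10 kb of a start, Polycomb-target genes had 9 higher in Q140 vs WT and 3 lower in Q140_Msh3KO vs Q140, regulators that bind CpG islands 2 and 0, GABA and interneuron markers 0 and 0, and glutamate receptors 0 higher, since fewer peaks enter.

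Without 1 library at a time, called peaks numbered 73 to 125 in Q140 vs WT, 8 to 14 in Q140_Msh3KO vs Q140, 0 to 2 in Q140_Msh3KO vs Msh3KO, 2 to 6 in Q140_Msh3KO vs WT, 0 in Msh3KO vs WT and 1 to 2 in the interaction. Medians ranged over 0.03 to 0.12, -0.11 to -0.03, -0.04 to 0.03, -0.02 to 0.05, -0.00254 to 0.05 and -0.14 to -0.04 in the same order. With the replicate block 107 peaks were called in Q140 vs WT (82 higher, 25 lower). Libraries with the same number in different genotypes correlated at -0.337 to 0.506 (median 0.0418, 36 pairs). Those with other numbers correlated at -0.49 to 0.484 (median -0.0144, 180 pairs). These correlations do not decide whether the numbers pair the samples, since some library measures followed the number. Among libraries labelled female, F3 had the most counts and the highest promoter share in every genotype. That share was 21.14% in Q140, 21.79% in Q140_Msh3KO, 21.72% in Msh3KO and 21.19% in WT. Shared processing by number was not tested beyond the replicate block. A correction for GC content was not run. After adjustment over all tested peaks, even a difference of several SE could fail the test. The Cbx8 and Uqcrb peaks did so in Q140_Msh3KO vs Msh3KO. Benjamini-Hochberg adjustment is stricter where fewer peaks pass. In that comparison 169 of 146155 tested peaks passed, against 15066 in Q140 vs WT. Numbers of calls in different comparisons therefore do not rest on the same unadjusted cutoff.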
